A study of Mus musculus with 25 samples.

Results

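Iron-sulfur clusters are cofactors that mitochondria build and hand to enzymes of respiration, metabolism and DNA maintenance. 9 genes of cluster assembly and of the CISD family of cluster-binding proteins were followed here: Nfs1, Lyrm4, Iscu, Glrx5, Isca1, Isca2, Cisd1, Cisd2 and Cisd3. They were taken by function from a list of gene symbols, and all 9 were found among the 24411 genes of each table. RNA of hippocampal nuclei sorted for the neuronal antigen NeuN was sequenced in 3 experiments with 25 libraries, all from male mice. The aging experiment compared wild-type mice, 3 young (3 months) with 2 aged (18 months). The overexpression experiment compared young mice injected in the hippocampus with a virus that carried GFP behind a synapsin promoter (control, n = 5) with mice given the same vector with the Ftl1 coding sequence (Ftl1 OE, n = 7). The knockdown experiment compared aged mice given a virus with a hairpin against luciferase (sh-Luc, n = 4) with mice given hairpins against Ftl1 (Ftl1 KD, n = 4). Ftl1 encodes the light chain of ferritin, the protein shell that stores iron. The sort gate took nuclei positive for Hoechst and NeuN, and a marker of the virus was not part of it as described. Nothing in the labels says whether each library came from 1 mouse. For the aging experiment the study counts 3 young and 2 aged mice, as many as libraries. The tests measure the spread between libraries.

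Libraries held 7969282 to 9537872 reads in the aging experiment, 9943996 to 17034325 in the overexpression experiment and 48902 to 358560 in the knockdown experiment. Each table was normalized on its own, so levels are compared only within a table. Normalized counts are reads divided by the size factor of each library. Differences are of log2(normalized count + 1), tested by limma over all genes whose normalized counts average 10 or more, and called at an adjusted p of 0.05 or less. Ftl1 itself was checked against the labels. In the overexpression experiment its normalized counts were 7315, 4580, 28310, 7415 and 9953 in controls 9901, 9904, 9905, 9925 and 9926, and 4737 to 7663 with a median of 5171 in the 7 that were labelled Ftl1 OE. In the knockdown experiment they were 49.1, 45.6, 56.2 and 24.2 in the sh-Luc libraries and 117, 106, 109 and 140 in those labelled Ftl1 KD, higher in 4 of 4. That difference passed the test (log2 difference 1.47, SE 0.25, limma, adjusted p = 0.000223), whereas that of the overexpression experiment did not (-0.67, SE 0.34, limma, adjusted p = 0.681; -0.065 without the 3 libraries named next). In both experiments the mean went against the label, so the groups are named below as the libraries labelled Ftl1 OE and Ftl1 KD, and every direction given for them is one between labels. In the aging experiment Ftl1 was 1685, 1925 and 2141 in young mice and 4247 and 4272 in aged mice (log2 difference 1.16, limma, adjusted p = 0.397; DESeq2, adjusted p = 0.000174). Over all genes tested, 3 overexpression libraries were least like the rest, with a mean Pearson r to the other libraries of 0.771 (control 9905), 0.789 (control 9926) and 0.789 (Ftl1 OE 9918), against 0.803 to 0.882 for the other 9. Differences of the members in that experiment are therefore given with and without these 3.

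Assembly starts when the cysteine desulfurase Nfs1, held stable by its small partner Lyrm4, passes sulfur to the scaffold protein Iscu. The glutaredoxin Glrx5 receives the new cluster and carries it onward, and Isca1 and Isca2 help to build the larger clusters that some mitochondrial enzymes need. The CISD proteins bind clusters of their own: Cisd1, also called mitoNEET, sits in the outer mitochondrial membrane, Cisd2 in the endoplasmic reticulum, where its loss causes a form of Wolfram syndrome, and Cisd3 inside mitochondria. Neurons depend on respiration, whose complexes hold many clusters, and loss of the assembly protein frataxin causes the neurodegenerative disease Friedreich ataxia.

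The 9 genes lie on 7 chromosomes of the mouse genome (GRCm38, GENCODE M21). Glrx5 and Isca2 share chromosome 12, and Isca1 (chr13:59755409-59769810, minus strand) and Lyrm4 (chr13:35978395-36117526, minus strand) share chromosome 13. Cisd1 lies at chr10:71330480-71344954 on the minus strand with 1084 exonic bases, and Glrx5 at chr12:105032688-105042906 on the plus strand with 3682. Exons of 3 members overlap a gene of the opposite strand that was also counted: Nfs1 shares 148 exonic bases with Romo1, Isca1 314 with Etohd2 and Lyrm4 115 with Fars2, between 2.94% and 5.51% of the exonic bases of the member. The sources differ on whether the libraries kept the strand, so these 3 members may hold reads of their partners. Overlaps were counted for these 3 pairs only, and those of the other members are not given.

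Divided by exonic length, Cisd1 was the most abundant member in the control groups of all 3 experiments. In the young libraries of the aging experiment it stood at 897 ± 153 normalized counts per kilobase (SD, n = 3), 2.83 times the level of Lyrm4, the next member. Lyrm4 (316 ± 28.2), Isca2 (284 ± 25.4) and Iscu (262 ± 64.6) followed and lay within their spread of each other. Nfs1 came next at 201 ± 5.17 normalized counts per kilobase, within the spread of Iscu. Cisd3 (115 ± 33.3) and Isca1 (90.1 ± 25.5) could not be separated by their spread, and Cisd2 (37.8 ± 6.43) and Glrx5 (16.01 ± 4.35) were lowest. In the GFP controls of the overexpression experiment, Cisd1 stood at 4996 ± 1989 normalized counts per kilobase (SD, n = 5), 5.39 times the level of Iscu. Iscu (927 ± 285), Cisd3 (716 ± 228), Isca2 (685 ± 194) and Glrx5 (567 ± 249) overlapped in their spread. Nfs1 (366 ± 89.9), Lyrm4 (225 ± 85.9) and Isca1 (172 ± 58.0) followed, each with a spread that overlapped that of the member before it, and Cisd2 (46.5 ± 28.8) was lowest. Glrx5, the lowest member in the young libraries, was thus of middle rank in these controls, whereas Cisd2 was low in both. In the sh-Luc libraries Cisd1 was again highest, at 14.4 ± 6.21 normalized counts per kilobase (SD, n = 4), and Cisd2 lowest, at 0.204 ± 0.201. These lengths count every annotated exon, used in neurons or not, which bears most on Isca1 with 10680 exonic bases and Cisd2 with 7667.

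RefSeq promoters (GRCm38.p6) were found for 8 of the 9 members. The stretch of 250 bases just before the start is shown for Cisd1 and Isca1, the members deep enough to test in all 3 experiments, and for Glrx5, whose p-value was the smallest of the members in the overexpression experiment. Capitals mark letters searched on both strands: CATGCGC, a half-site of NRF1, a factor of mitochondrial genes; CCGGAAG, the core of ETS factor sites; and CCAAT. The Cisd1 stretch is chr10:71344850-71345099 on the minus strand, that of Glrx5 chr12:105032368-105032617 on the plus strand and that of Isca1 chr13:59769790-59770039 on the minus strand. RefSeq and GENCODE place the starts differently: 105 bases of the Cisd1 stretch, with both of its matches, and 21 bases of the Isca1 stretch, with 0 of its 3 matches, lie inside the GENCODE gene, and 70 bases separate the Glrx5 stretch from the gene.
Cisd1: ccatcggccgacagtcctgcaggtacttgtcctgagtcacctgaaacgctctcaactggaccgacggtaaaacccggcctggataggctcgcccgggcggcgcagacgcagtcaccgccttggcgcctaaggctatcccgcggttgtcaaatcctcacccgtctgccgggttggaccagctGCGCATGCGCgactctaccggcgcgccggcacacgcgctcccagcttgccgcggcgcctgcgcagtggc
Glrx5: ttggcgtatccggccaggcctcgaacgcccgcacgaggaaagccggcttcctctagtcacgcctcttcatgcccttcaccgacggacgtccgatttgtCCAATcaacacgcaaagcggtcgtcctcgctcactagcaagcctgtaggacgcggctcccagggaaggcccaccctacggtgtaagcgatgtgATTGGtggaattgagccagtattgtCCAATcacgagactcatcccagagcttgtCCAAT
Isca1: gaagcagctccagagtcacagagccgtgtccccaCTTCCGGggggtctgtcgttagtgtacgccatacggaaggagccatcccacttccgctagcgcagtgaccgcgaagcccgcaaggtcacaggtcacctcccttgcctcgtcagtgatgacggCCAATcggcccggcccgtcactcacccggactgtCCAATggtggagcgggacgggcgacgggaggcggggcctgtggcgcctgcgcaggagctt
In Cisd1 the capitals are 2 overlapping copies of CATGCGC, 1 on each strand, between 69 and 60 bases before the start. Glrx5 held 4 copies of CCAAT, the last of which ends at the base before the start, and Isca1 held 1 CCGGAAG and 2 CCAAT. Among the stretches of all 32851 promoters in the table, 3.24% held CATGCGC, 6.91% CCGGAAG and 33.8% CCAAT. Among the members CATGCGC was found in Cisd1 and Cisd3, CCGGAAG in Nfs1, Isca1 and Isca2, and CCAAT in Cisd2, Isca2, Glrx5 and Isca1. A match is a description of letters, and binding was not measured.

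The aging experiment asked which genes of neuronal nuclei differ between young and aged mice. None of the 9 members passed an adjusted p of 0.05 by limma, as did 0% of the 13712 genes tested, and none had an unadjusted p at or under 0.05, against 7.94% of all genes. edgeR called 0 members and 0% of genes, and DESeq2 called 0 members and 1.01% of genes. Nfs1, the sulfur donor, held 743, 728 and 706 normalized counts in young mice and 473 and 538 in aged mice (725 ± 18.7, SD, n = 3, against 506 ± 45.9, n = 2). Both aged libraries were below all young libraries. The log2 difference was -0.52 (SE 0.30, 95% confidence interval -1.17 to 0.12, limma, adjusted p = 0.665). Iscu, the scaffold that takes up this sulfur, was 422, 702 and 587 in the young and 918 and 814 in the aged libraries, so that both aged libraries were above all young ones. Its log2 difference was 0.63 (SE 0.32, interval -0.07 to 1.33, limma, adjusted p = 0.648). Permuted exactly and two-sided, Nfs1 had p = 0.1, the smallest that 3 against 2 libraries allow, and Iscu p = 0.2. Nfs1 and Iscu were the 2 of 9 members whose groups did not overlap, and 24.7% of all genes tested did not overlap either.

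**Figure D1:**
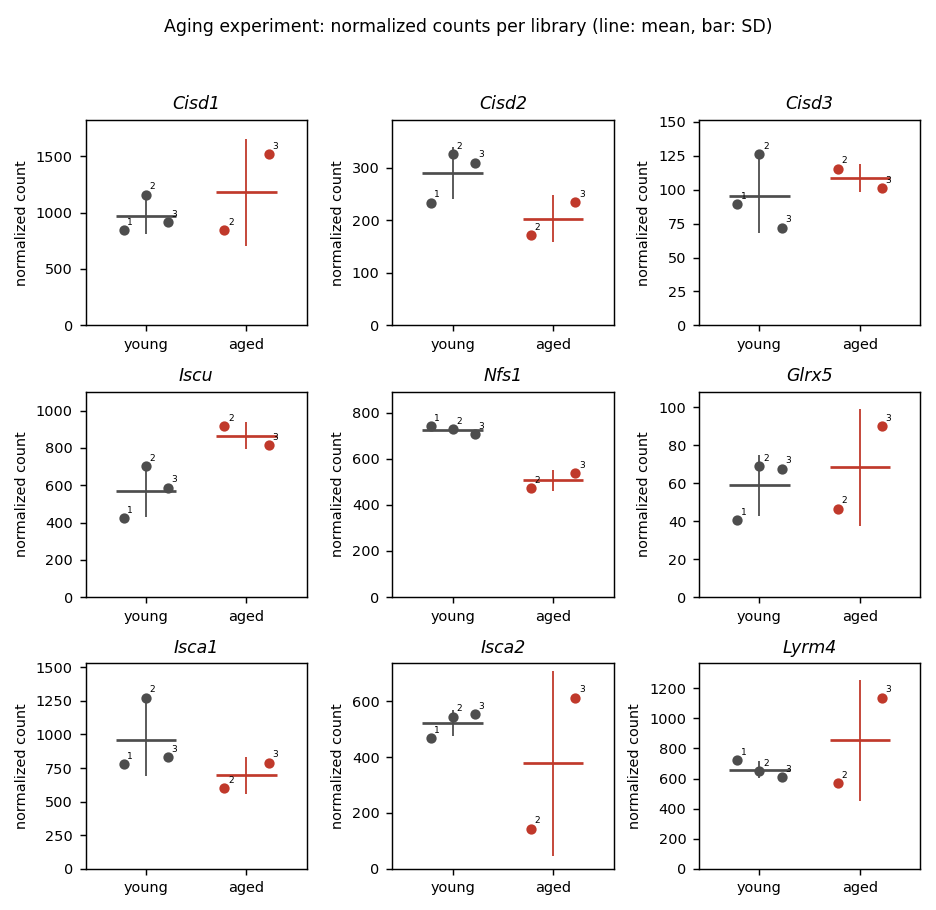
Normalized counts of the 9 members in the 3 young (3 months) and 2 aged (18 months) libraries of the aging experiment, 1 point per library with its replicate number, a line at the group mean and a bar of 1 SD. The groups do not overlap for Nfs1 and Iscu, and aged libraries 2 and 3 lie far apart for Isca2 (144 and 614).

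The other 7 members had groups that overlapped, and for Isca2 and Lyrm4 the 2 aged libraries lay on opposite sides of all young ones. Isca2 held 469, 545 and 554 in young mice and 144 and 614 in aged mice, with aged library 2 below and aged library 3 above all young libraries. Lyrm4, the partner of Nfs1, was 724, 649 and 608 in the young and 570 and 1138 in the aged libraries, again on either side. Cisd1 was 841, 1159 and 916 in the young and 845 and 1517 in the aged libraries. The log2 differences were -0.80 for Isca2, 0.29 for Lyrm4 and 0.23 for Cisd1. They turned to 0.24 for Isca2 without aged library 2, and to -0.21 for Lyrm4 and -0.19 for Cisd1 without aged library 3. Isca1 (-0.45), Cisd2 (-0.51), Cisd3 (0.21) and Glrx5 (0.17) did not pass either, with limma adjusted p-values of 0.732, 0.756, 0.940 and 0.964. Leaving out aged library 3 or young library 1 also turned the sign of Glrx5, to -0.30 and -0.074. With 1 library left out Isca1 ran from -0.64 (aged library 3) to -0.23 (young library 2), Cisd2 from -0.73 (aged library 3) to -0.29 (aged library 2) and Cisd3 from 0.027 (young library 3) to 0.43 (young library 2). Over the 9 members 5 had a log2 difference above 0 and 4 below, with a median of 0.17 beside -0.03 over all genes. The 10 neuron markers, led by Syt1, had reads in every library and summed to 31178, 39842 and 39364 in young mice and 36672 and 41413 in aged mice. The ribosomal protein genes, a set of 83 chosen by name after the data were seen and led by Rps2 or Rpl4, summed to 20427, 27925 and 23142 in young mice and 33055 and 34709 in aged mice. Of the 81 tested 74 had a log2 difference above 0, 17 with a limma p at or under 0.05, and limma and edgeR called 0 and DESeq2 1. The 8 astrocyte markers, led by Slc1a2, summed to 5315, 4989 and 3669 in young mice and 3122 and 4019 in aged mice, with Aldh1l1 at 0 in young library 1. The 8 oligodendrocyte markers, led by Mbp, summed to 3084, 6800 and 5380 in young and 3173 and 4412 in aged mice, with Ermn at 0 in young library 1 and Mog in aged library 2. Of each of these lists 7 of 8 had a log2 difference below 0, 2 astrocyte and 1 oligodendrocyte gene with a limma p at or under 0.05. Limma and edgeR called 0 of them, and DESeq2 called Gjb6, an astrocyte connexin, lower (limma log2 difference -5.74, adjusted p = 0.354). The ribosomal RNA gene Rn45s took 2.63% to 4.00009% of reads in young and 5.91% to 6.42% in aged libraries. The part of these measures in the values of Iscu and Nfs1 was not tested.

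The overexpression experiment asked what follows when young neurons are given more Ftl1. None of the 9 members passed by limma, as did 0% of the 14099 genes tested. 2 of 9 members, Cisd1 and Glrx5, had an unadjusted p at or under 0.05, against 7.26% of all genes. edgeR called 0 members and 0% of genes, and DESeq2 called 0 of the 8 members to which it gave an adjusted p and 1.71% of the 5898 genes with one. No member had groups that did not overlap, and 0.582% of all genes did. Cisd1 was 4384, 3665, 8994, 4200 and 5833 in controls 9901, 9904, 9905, 9925 and 9926. In the libraries labelled Ftl1 OE the lowest was 3025, the median 3524 and the highest 4713. 5 of these 7 were below the lowest control, and the other 2 were within the range of the controls. The mean was 5415 ± 2156 (SD, n = 5) against 3714 ± 611 (n = 7). The log2 difference was -0.48 (SE 0.22, interval -0.94 to -0.02, limma, adjusted p = 0.672). The exact two-sided permutation p was 0.0354, where the smallest possible is 0.00126. Without control 9905 the log2 difference was -0.28 (limma, adjusted p = 0.954), and without the 3 libraries least like the rest it was -0.12 (limma, adjusted p = 0.864). Cisd1 belongs to a set of genes the study chose on these samples, so its direction here is no independent evidence for that set.

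Glrx5, the carrier of new clusters, was 1438, 1071, 3350, 1957 and 2621 in the same controls, and 882 to 1697 with a median of 1261 in the libraries labelled Ftl1 OE. Controls 9905, 9925 and 9926 were above every library labelled Ftl1 OE, and controls 9901 and 9904 were among them. The log2 difference was -0.65 (SE 0.27, interval -1.22 to -0.09, limma, adjusted p = 0.629), and the exact permutation p was 0.0467. It was -0.45 without control 9905 (limma, adjusted p = 0.954) and -0.21 without the 3 libraries (limma, adjusted p = 0.831). Iscu was 1856, 1554, 3079, 1613 and 1979 in the controls and 1316 to 1797 with a median of 1680 in the libraries labelled Ftl1 OE. Its log2 difference was -0.31 (SE 0.19, limma, adjusted p = 0.717), -0.14 without control 9905 (limma, adjusted p = 0.966) and -0.095 without the 3 libraries (limma, adjusted p = 0.897).

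**Figure D2:**
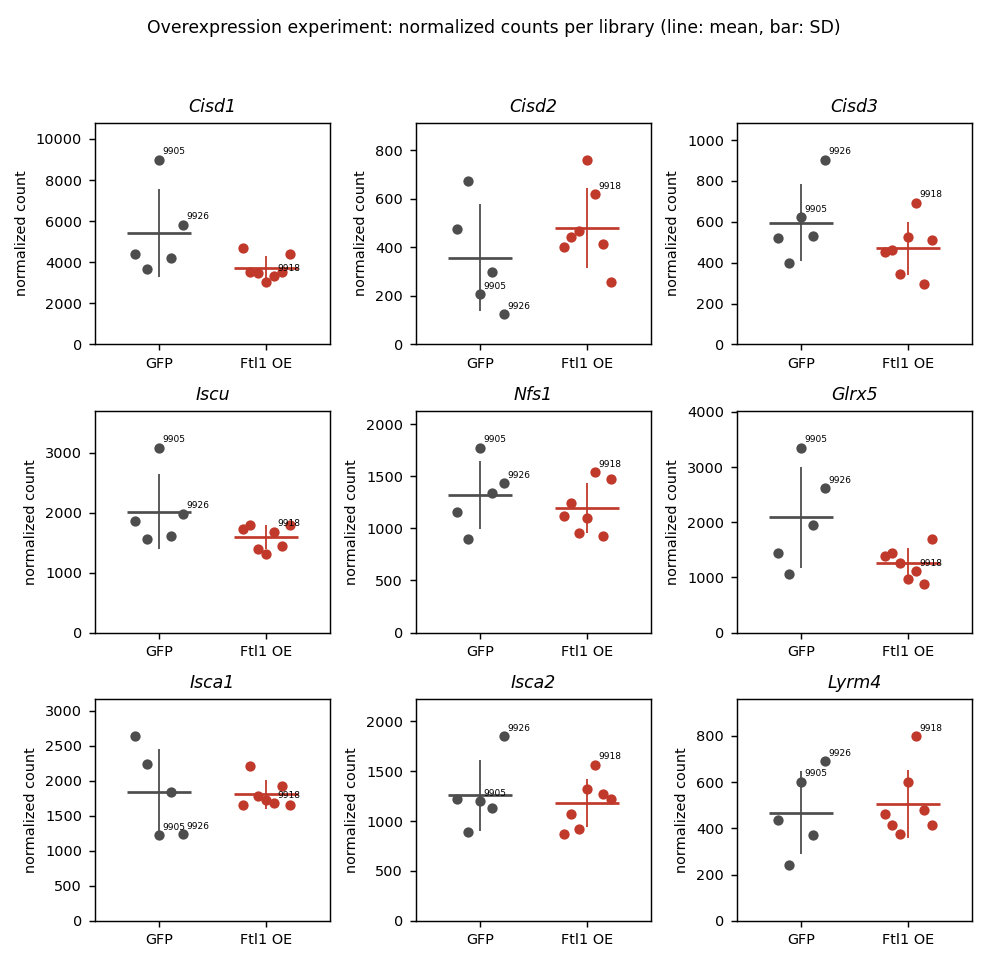
Normalized counts of the 9 members in the 5 GFP control libraries and the 7 libraries labelled Ftl1 OE, 1 point per library, with a line at the group mean and a bar of 1 SD; the numbers name the 3 libraries least like the rest over all genes. Control 9905 is highest for Cisd1 (8994), Glrx5 (3350), Iscu (3079) and Nfs1 (1773) and near the lowest for Cisd2 (207).

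Cisd2, the CISD protein of the endoplasmic reticulum, ran the other way in the same libraries. It was 477, 675, 207, 300 and 125 in controls 9901, 9904, 9905, 9925 and 9926. The libraries labelled Ftl1 OE held 255 to 761 with a median of 441. The log2 difference of 0.59 (SE 0.39, limma, adjusted p = 0.723) turned to -0.081 without the 3 libraries least like the rest. Isca1 was likewise lowest in controls 9905 (1221) and 9926 (1240), against 1834, 2232 and 2639 in controls 9925, 9904 and 9901 and 1646 to 2216 in the libraries labelled Ftl1 OE. Its log2 difference of 0.04 (SE 0.21, interval -0.40 to 0.48, limma, adjusted p = 0.968) was near 0. Nfs1 (-0.14), Isca2 (-0.08), Lyrm4 (0.16) and Cisd3 (-0.34) had limma adjusted p-values of 0.866, 0.923, 0.896 and 0.757. Without the 3 libraries Nfs1 was at 0.0037, Isca2 at 0.036, Lyrm4 at 0.41, Cisd3 at -0.18 and Isca1 at -0.29, and single libraries turned Isca1 (-0.092 without control 9905), Isca2 (0.068 without control 9926) and Lyrm4 (-0.057 without control 9904). With 1 library left out Cisd2 ran from 0.28 (control 9926) to 0.88 (control 9904), Cisd3 from -0.47 (control 9904) to -0.18 (control 9926) and Nfs1 from -0.27 (control 9904) to -0.021 (control 9905). Of the 9 members 6 had a log2 difference below 0 and 3 above, with a median of -0.14, whereas the median over all genes was 0.10. Without the 3 libraries these medians were -0.095 and -0.024. Centring each library on its median turned Isca1 to -0.058 and left the signs of the other 8 members.

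Other measures moved between the same libraries. The summed normalized count of the same 83 ribosomal protein genes was 298166 in control 9905 and 215195 in control 9926, against 137557, 100334 and 142728 in controls 9901, 9904 and 9925. In the libraries labelled Ftl1 OE it was 85425 to 126214 with a median of 96489. Of its 80 genes tested 62 had a limma p at or under 0.05, each with a log2 difference below 0. Limma and edgeR called 0 of the 80, and DESeq2 called 24 of the 72 to which it gave an adjusted p, all lower. Without the 3 libraries the median log2 difference of the 80 went from -0.71 to -0.34, with 16 lower and 1 higher at a limma p at or under 0.05. The 8 microglia markers, led by C1qb except in control 9905, where Csf1r led, summed to 4093, 2396, 3362, 2279 and 6188 in controls 9901, 9904, 9905, 9925 and 9926 and to 1038 to 2470 with a median of 1652 in the libraries labelled Ftl1 OE. A limma p at or under 0.05 was found for 4 of the 8, each with a log2 difference below 0, and limma and edgeR called 0 and DESeq2, with an adjusted p for 2, called C1qb lower, while P2ry12 was at 0 in controls 9905 and 9926, C1qc in control 9905 and C1qa in Ftl1 OE 9918. Their median log2 difference was -1.08, and -0.77 without the 3 libraries. The 7 nuclear-retained RNAs, led by Malat1 except in control 9926, where Snhg11 led, summed to 110638, 253191, 61857, 136885 and 87676 in controls 9901, 9904, 9905, 9925 and 9926. In those labelled Ftl1 OE they summed to 78266 to 333252 with a median of 124564, highest in 9918, and Neat1 was at 0 in control 9905. The 8 astrocyte markers, led by Slc1a3, Slc1a2 or Gfap, summed to 26368, 24443, 5773, 15342 and 17530 in the controls in the same order and to 9213 to 41490 with a median of 23118 under the label Ftl1 OE, and Aqp4 was at 0 in control 9905. Limma and edgeR called 0 of these RNAs and markers, DESeq2 called 0 of the 4 RNAs and 8 markers to which it gave an adjusted p, and 0 of either had a limma p at or under 0.05. The part of these measures in the differences of Cisd1, Glrx5 and Iscu was not tested. Fewer nuclei of a type and less RNA per nucleus cannot be told apart in such libraries. The 10 neuron markers had reads in every library of this experiment and summed to 54056 to 78915 in the controls and 48525 to 69156 in the libraries labelled Ftl1 OE. Among these markers 7 had a log2 difference below 0, 0 had a limma p at or under 0.05, limma, edgeR and DESeq2 called 0, and their median was -0.099. Without the 3 libraries 8 were below 0, 3 with a limma p at or under 0.05, the median was -0.32 and limma called 0. The 8 oligodendrocyte markers, led by Mbp, summed to 22670 to 47720 and 26467 to 44064. From which nuclei these reads came was not tested.

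The 5 genes tested whose log2 normalized counts were most like those of Cisd1 over the 12 overexpression libraries were Mgst3 (r = 0.985, rho = 0.972), Tomm22 (0.979, 0.916), Rpl10a (0.977, 0.902), Lamtor5 (0.975, 0.944) and Cck (0.970, 0.895). They were picked for their r, so no p is given. Mgst3, a glutathione transferase of membranes, ran from 1046 to 7330 normalized counts, and Tomm22, a receptor for proteins entering mitochondria, from 995 to 3026. Without controls 9905 and 9926, the libraries farthest from the median of Cisd1, r was 0.931, 0.899, 0.885, 0.870 and 0.874 in the same order.

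The knockdown experiment asked what follows when Ftl1 is lowered in aged mice. Its libraries were shallow, and 2 of the 9 members, Cisd1 and Isca1, reached the mean normalized count of 10 needed for a test. Neither passed by limma, which called 24.2% of the 1460 genes tested, and both had an unadjusted p at or under 0.05, against 38.2% of those genes. Isca1 passed in edgeR, which called 28.8% of genes, and in DESeq2, which called 23.8%. Its mean was under 10 in the sh-Luc libraries, so it was deep enough to test only through the libraries labelled Ftl1 KD, and the filter favoured a higher call. Without the filter limma called 0 of the 9 members, 2 with a p at or under 0.05, and 2.49% of 13393 genes, with an adjusted p of 0.148 for Isca1. The groups overlapped for both, whereas 23.8% of all genes did not overlap. Isca1, a late factor for larger clusters, was 9.44, 6.86, 5.62 and 4.18 normalized counts in sh-Luc libraries 1, 2, 3 and 5, from 10, 17, 3 and 10 reads. It was 7.67, 21.6, 20.04 and 16.2 in libraries 1, 3, 4 and 5 labelled Ftl1 KD, from 8, 24, 11 and 11 reads. 3 of these 4 were above every sh-Luc library, and library 1 was within their range. The mean was 6.52 ± 2.23 (SD, n = 4) against 16.4 ± 6.25 (n = 4). The log2 difference was 1.16 (SE 0.46, interval 0.23 to 2.10, limma, adjusted p = 0.0613). The exact two-sided permutation p was 0.0571, where the smallest possible is 0.0286. The adjusted p was 0.0229 in edgeR, 0.0346 in DESeq2, 0.0460 in limma without sh-Luc library 1 and 0.0258 without Ftl1 KD 1, and lay between 0.0229 and 0.212 over the alternatives run.

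Cisd1 was 9.44, 24.6, 16.9 and 11.7 in sh-Luc libraries 1, 2, 3 and 5, from 10, 61, 9 and 28 reads. It was 32.6, 28.9, 20.04 and 22.04 in libraries 1, 3, 4 and 5 labelled Ftl1 KD, from 34, 32, 11 and 15 reads. 2 of the 4 were above every sh-Luc library, and sh-Luc library 2 was above the other 2. The mean was 15.6 ± 6.73 (SD, n = 4) against 25.9 ± 5.86 (n = 4). The log2 difference was 0.75 (SE 0.33, interval 0.08 to 1.42, limma, adjusted p = 0.0913). The exact permutation p was 0.0857. Without sh-Luc library 2 Cisd1 passed (log2 difference 0.99, limma, adjusted p = 0.0443), and its adjusted p lay between 0.0443 and 0.319 over the alternatives run. The study chose its set of genes with Cisd1 on these libraries too, so this direction is no independent evidence for that set.

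**Figure D3:**
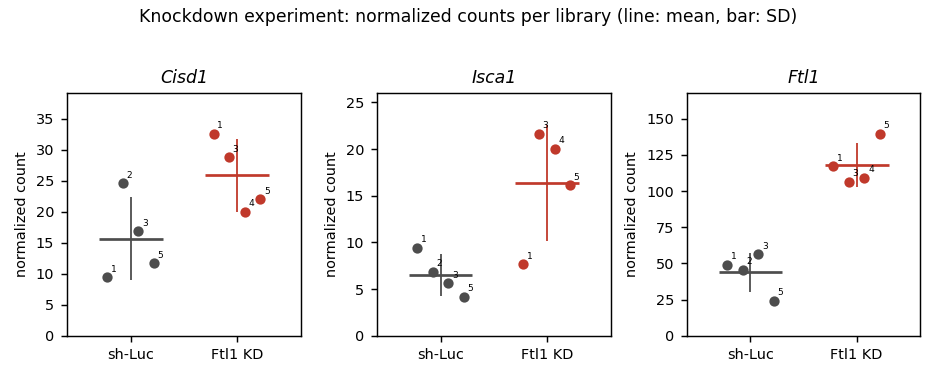
Normalized counts of Cisd1, Isca1 and Ftl1 in the 4 sh-Luc libraries and the 4 libraries labelled Ftl1 KD, 1 point per library with its replicate number, a line at the group mean and a bar of 1 SD. Ftl1 is higher in all 4 libraries labelled Ftl1 KD (106 to 140) than in the sh-Luc libraries (24.2 to 56.2), while the groups overlap for Cisd1 and Isca1.

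The other 7 members had a mean normalized count under 10 in the knockdown experiment and were tested only without the filter, where their limma adjusted p-values lay between 0.650 (Nfs1) and 0.954 (Isca2). Iscu had the most reads of them, 5, 14, 6 and 21 in sh-Luc libraries 1, 2, 3 and 5 and 13, 6, 7 and 7 in libraries 1, 3, 4 and 5 labelled Ftl1 KD. Its mean normalized count was 7.59 in the sh-Luc libraries and 10.2 in those labelled Ftl1 KD (exact permutation p = 0.257). In the same order the mean was 3.09 and 5.24 for Nfs1, 2.46 and 3.33 for Lyrm4, 4.64 and 2.79 for Glrx5, 2.98 and 2.33 for Isca2, 1.56 and 0.960 for Cisd2, and 1.35 and 0.906 for Cisd3. The groups overlapped for all 7, and a library held 0 to 21 reads of any of them. The libraries also differed in other measures, whose part in the values of Cisd1 and Isca1 was not tested. The ribosomal RNA gene Rn45s took 31.9% to 55.3% of the reads of the sh-Luc libraries and 30.3% to 34.5% of those labelled Ftl1 KD. The 7 nuclear-retained RNAs, led by Malat1 except in Ftl1 KD 5, where Snhg11 led, summed to 1004, 619, 697 and 1235 in sh-Luc libraries 1, 2, 3 and 5 and to 322, 234, 219 and 229 in libraries 1, 3, 4 and 5 labelled Ftl1 KD. All 4 of those tested were called lower by limma, with and without the filter, although Miat had a mean under 10 in the libraries labelled Ftl1 KD. The ribosomal protein genes summed to 760, 1023, 1084 and 794 against 1221, 1201, 1157 and 1211 in the same order. Limma called 4 of 44 tested higher, beside 154 of all 1460 genes, and 2 of 80 without the filter, beside 124 of 13393. The 8 oligodendrocyte markers, led by Mbp except in Ftl1 KD 5, where Cnp led, summed to 60.4, 96.8, 71.2 and 39.7 against 19.2, 24.4, 10.9 and 13.2, with Ermn at 0 in every library. Limma called both tested genes, Mbp and Cnp, lower. Their means under the label Ftl1 KD, 9.61 and 4.71, were under 10, so the filter favoured a lower call. Without the filter their limma adjusted p-values were 7.81e-05 and 0.00647. The 8 astrocyte markers, led by Slc1a3 in all 4 libraries labelled Ftl1 KD and by Gfap or Slc1a2 in the sh-Luc libraries, summed to 54.7, 31.5, 26.2 and 24.7 against 60.4, 47.8, 60.1 and 73.5, with Gjb6 at 0 in every library. Of 2 tested limma called Slc1a3 higher, from a mean of 5.56 in the sh-Luc libraries to 25.3, so the filter favoured a higher call. Without the filter its limma adjusted p was 0.000191. Gfap went the other way, from 10.98 to 4.80, was under the mean of 10 over all 8 libraries, and had a limma adjusted p of 0.377 without the filter. The 5 markers of oligodendrocyte precursors, led by Olig1, summed to 10.4, 4.44, 16.9 and 2.09 against 17.3, 18.0, 29.1 and 17.6, with 3, 4, 3 and 3 markers at 0 against 1, 1, 2 and 2. Olig1, whose sh-Luc mean was under 10, was called higher by edgeR and DESeq2 but not by limma (log2 difference 1.40, adjusted p = 0.0524, and 0.0552 without the filter). The 8 microglia markers, led by C1qb, C1qc, Csf1r or Cx3cr1, summed to 5.66, 13.3, 13.1 and 7.94 against 7.67, 1.80, 0 and 1.47, with 6, 3, 6 and 2 markers at 0 against 4, 7, 8 and 7. Of them 0 reached the mean of 10, and limma without the filter called 0 and found 2 lower at a p at or under 0.05. The 10 neuron markers, led by Syt1 in the sh-Luc libraries and Tubb3 in those labelled Ftl1 KD, summed to 271, 231, 219 and 252 against 315, 294, 288 and 326. Of 6 tested limma called Tubb3 and Gad1 higher and Slc17a7 lower, edgeR and DESeq2 only the first 2, and Prox1 was at 0 in sh-Luc library 3 and libraries 3 and 5 labelled Ftl1 KD.

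**Figure D4:**
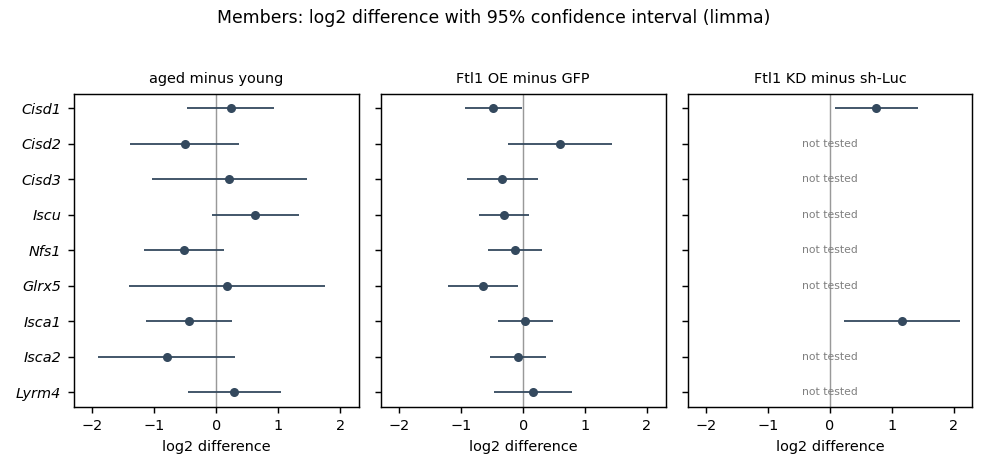
Log2 difference of each member between the 2 groups of each experiment (horizontal axis) with its 95% confidence interval from limma; 7 members were under the mean of 10 in the knockdown experiment. The interval leaves out 0 for Cisd1 and Glrx5 in the overexpression experiment and for Cisd1 and Isca1 in the knockdown experiment, and none of these passed the adjusted threshold.

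Other genes of the pathway were taken from lists chosen by function. Over these 5 lists limma and edgeR called 0 genes in the aging and overexpression experiments, and DESeq2 called Ercc2 and Ftl1, both higher, in the aging experiment and 0 in the overexpression experiment. In the latter it gave an adjusted p to 7 of 17, 8 of 11, 10 of 13, 6 of 15 and 5 of 8 genes tested, in the order of the lists below. At a limma p at or under 0.05 stood 3 and 3 further mitochondrial assembly genes in the aging and the overexpression experiment. So did 0 and 2 cytosolic assembly genes and 1 and 1 mitochondrial enzymes, and all of these were lower. The cytosolic and nuclear enzymes held 1 and 0 such genes and iron handling 1 and 0, each higher. Over all genes the share was 7.94% and 7.26%. Of 17 further mitochondrial assembly genes, all 17 were tested in the aging and in the overexpression experiment, where the median log2 differences were -0.08 and -0.30, beside -0.03 and 0.10 over all genes. Fdxr, the reductase that feeds electrons to assembly, had the smallest p of this list in the aging experiment, at 172 ± 33.6 normalized counts (SD, n = 3) in the young and 39.6 ± 16.8 (n = 2) in the aged libraries (log2 difference -2.14, SE 0.60, limma, adjusted p = 0.441). Ndufab1, the acyl carrier protein that binds Lyrm4, had it in the overexpression experiment, at 1827 ± 352 (n = 5) against 1299 ± 175 (n = 7), with a log2 difference of -0.48 (SE 0.18, limma, adjusted p = 0.588). In the knockdown experiment 1 of the 17 was deep enough to test: Hspa9, the chaperone that helps to release clusters from Iscu, was called higher in the libraries labelled Ftl1 KD, beside 24.2% of all genes. Its sh-Luc mean was under 10, so the filter favoured a higher call. It rose from 8.73 ± 4.01 to 23.0 ± 8.99 normalized counts (n = 4 each; log2 difference 1.33, SE 0.41, limma, adjusted p = 0.0175, and 0.0355 without the filter). The 11 cytosolic assembly genes were tested in the aging and overexpression experiments and 0 of them reached the mean of 10 in the knockdown experiment, where limma without the filter called 1, Glrx3, higher (mean 2.20 against 9.33, 15 and 29 reads summed over a group, adjusted p = 0.0483), named after its value was seen. Among those that reached it, the smallest p of this list was that of Bola2, which pairs with glutaredoxins, in the overexpression experiment (521 ± 250 against 207 ± 51.5; log2 difference -1.24, SE 0.33, limma, adjusted p = 0.499).

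The 13 mitochondrial enzymes that hold clusters had median log2 differences of -0.07 in the aging and -0.12 in the overexpression experiment. In the knockdown experiment 8 were tested, 7 of them with a log2 difference above 0, beside 49.5% of all genes. Their median was 0.41, beside -0.01 over all genes. This was shared by the ribosomal protein genes, of which 40 of 44 tested were above 0, with a median of 0.46. Limma, edgeR and DESeq2 each called 1 of the 8, higher, beside 24.2%, 28.8% and 23.8% of all genes. Without the filter limma called 1 of 13, higher, beside 2.49% of all genes. Sdhb, the cluster subunit of complex II, had a log2 difference of 0.71 (SE 0.29, limma, adjusted p = 0.0720), and Ndufs7, a cluster subunit of complex I, one of -0.87 (SE 0.36, limma, adjusted p = 0.0705). Sdhb is in the same set as Cisd1, which the study chose on these samples, so its direction is no independent evidence for that set. Of the 16 cytosolic and nuclear enzymes that hold clusters, 14 were tested in the aging and 15 in the overexpression experiment. In the knockdown experiment 0 reached the mean of 10, and limma without the filter called 1 of 14, Dph1, lower (mean 10.56 against 2.82, 60 and 12 reads summed over a group, adjusted p = 0.0126), named after its value was seen. Ercc2, a DNA helicase, had the smallest p of that list in the aging experiment, at 259 ± 68.3 in the young and 705 ± 119 in the aged libraries (log2 difference 1.47, SE 0.37, limma, adjusted p = 0.441; DESeq2, adjusted p = 0.0336). Of the 8 genes of iron handling 2 were deep enough to test in the knockdown experiment, and limma called Ftl1. On all overexpression libraries the median was -0.027 for cytosolic assembly, -0.12 for the cytosolic and nuclear enzymes and -0.042 for iron handling, beside 0.10 over all genes. Without the 3 libraries least like the rest, the overexpression medians were -0.076 for the further mitochondrial assembly genes, 0.23 for cytosolic assembly, -0.15 for the mitochondrial enzymes, 0.19 for the cytosolic and nuclear enzymes and -0.092 for iron handling, beside -0.024 over all genes. The medians of cytosolic assembly and of the cytosolic and nuclear enzymes thus turned sign.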

How the data were processed

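Nuclei sorted for Hoechst and NeuN were sequenced by the authors, who aligned reads with STAR to the mm10 transcriptome, quantified genes with RSEM and normalized each table with DESeq2. The deposited values are a signal, read counts divided by the size factor of the library, and 100% of them came out as whole reads (tolerance 0.01 read), so reads were recovered by division. The authors' columns of mean, fold change, standard error, statistic and p-values were not used. The annotation release is not given in the sources used here, which name different library kits and both lentivirus and AAV. The labels assigned all 25 libraries to groups, and the tests were limma 3.58.1 (eBayes with trend, Benjamini-Hochberg adjustment) in R 4.3.3 and an exact permutation test. The limma fit was tried on simulated data. Alternatives were pseudocounts of 0.5 and 5, no filter or a mean of 100, TMM scaling, median centring, edgeR 4.0.16 and DESeq2 1.42.0 on the recovered reads, a replicate block and leaving out each library. Tables and figures were made in Python 3.11.15 with numpy 2.4.6, pandas 2.3.3, scipy 1.17.1 and matplotlib 3.10.9. Genes named from the other pathway lists were among those with the smallest p-values of their list in an experiment, and not every such gene was named. Exceptions were Glrx3 and Dph1, named from the fit without the filter after their values were seen. The 5 genes most like Cisd1 had the highest Pearson r. No 2 libraries of a group differed by as little as sampling noise (lowest chi-square per degree of freedom 1.40). Overexpression libraries with a mean r under 0.8 were left out in an alternative added after seeing the data. This was not done in the knockdown experiment, where the mean r was 0.538 to 0.645 in all 8 libraries. Group comparisons had first been run without controls 9905 and 9926, picked after member values were seen, and those comparisons are not used. Members and lists were chosen with earlier results of these data known. Mitochondrially encoded genes were not analysed here. The values of 1 gene of the list of mitochondrial enzymes that hold clusters are not reported here, although the counts and medians of that list include it.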

Additional observations from a re-analysis of the deposited data

Results flagged for a closer look

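Iscu was 3079 normalized counts in control 9905 of the overexpression experiment, far above the other 4 controls, of which the next was 1979. The gap was 0.721 of the range of the group. Of 22 groups of 4 or more libraries checked in this way it was the 1 that stood out, and chance alone picks out about 1 in 20.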

How the results depend on the processing

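Over the single members 321 of 346 alternative values kept their direction and their side of the threshold, 18 turned sign and 7 passed where limma on all libraries did not. In the aging experiment DESeq2 called 138 genes where limma called 0. Leaving out 1 library gave -0.19 to 0.66 for Cisd1, -0.30 to 0.64 for Glrx5, -1.85 to 0.24 for Isca2 and -0.21 to 0.79 for Lyrm4 on the log2 scale. A group of 1 aged library was assumed to vary like the others. In the overexpression experiment DESeq2 called 101 genes, and limma called 0 to 1 with 1 library left out (1 without control 9925). Isca1 turned to -0.058 with median centring, -7.65e-05 in edgeR and -0.024 in DESeq2. Without the 3 libraries least like the rest Isca1 was -0.29, Cisd2 -0.081, Nfs1 0.0037, Isca2 0.036 and Lyrm4 0.41. With 1 library left out Isca1 ran from -0.092 to 0.19, Isca2 from -0.19 to 0.068 and Lyrm4 from -0.057 to 0.32. The cause was not tested.

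In the knockdown experiment limma called 354 genes, 154 higher and 200 lower, against 197 higher and 161 lower with median centring, which moved the median of all genes from -0.012 to 0.098. It called 18 genes at a mean of 100, where fewer genes were tested, and 235 (without sh-Luc library 5) to 439 (without sh-Luc library 3) with 1 library left out. The number of members called was 1 with a pseudocount of 5, with median centring, in edgeR and in DESeq2, and 0 to 1 with 1 library left out. At a mean of 100 neither member of that experiment was tested, nor was Glrx5 in the aging experiment. Deviations of same-numbered libraries had r of -0.0535 and 0.0236 in the aging and -0.0336, -0.0196 and -0.0524 in the knockdown experiment. In the aging experiment the deviations of the 2 aged libraries are mirror images. So few values cannot show whether replicate numbers mark pairs. With the replicate block 173 genes were called in the knockdown and 0 in the aging experiment, where Glrx5 turned to -0.074, its value without young library 1, which has no same-numbered aged library. At 48902 to 358560 reads a library the knockdown experiment left 7 of the 9 members under the depth set for a test.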
